A study of Mus musculus with 16 samples.

Results

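The genes described are Srebf1 and 8 genes of fatty acid synthesis and its control, namely Acly, Acaca, Fasn, Elovl6, Elovl5, Scd2, Mlxipl and Thrsp. These 9 were picked by symbol out of 35415 genes in the deposited tables, at a time when group results from the same counts were known. Their differences between groups are therefore a description, and the adjusted p-values beside them support nothing further. All 9 were among the 14749 genes that passed the filter on low counts. The libraries were polyA RNA from the gastrocnemius of male BALB/c mice, 8 weeks old at purchase, with 4 sequenced mice of 12 in each of 4 groups. The C group was given saline and no training, and the E group was given saline and ran. Mice of the T group were inoculated with CT26 cells under the skin at the hind limb and not trained, and those of the TE group were inoculated likewise and ran. Not every inoculated TE mouse of the study grew a tumor, and the tumor state of the single sequenced mice is not given beyond the group label. CT26 is a colon carcinoma line of BALB/c origin, so the host is of the tumor's own strain. Treadmill sessions took 60 min at 14 m/min, 6 times a week over 4 weeks, starting the day after inoculation, and the untrained mice stood on a stationary treadmill. Libraries are named by group and replicate number, so that E2 is replicate 2 of the E group. Nothing in the labels pairs mice across groups.

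Fatty acid synthesis turns cytosolic citrate into saturated and monounsaturated fatty acids. Acly splits citrate into acetyl-CoA, Acaca carboxylates that to malonyl-CoA, and Fasn builds palmitate from it. Elovl6 lengthens palmitate, Scd enzymes put in a double bond, and Elovl5 lengthens polyunsaturated chains. Transcription of these enzymes is driven by SREBP-1, the product of Srebf1, after insulin and liver X receptor (LXR) signals, and by ChREBP, the product of Mlxipl, after glucose. Thrsp encodes Spot 14, a small protein of lipogenic tissues that goes up with thyroid hormone and carbohydrate. The pathway is strongest in liver and fat, and skeletal muscle carries it at a low level, with fat cells between and along the fibers as a second site.

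The stretch before the transcription start is shown for Srebf1, which was called between C and T mice, and for Fasn, Acly and Thrsp, whose levels were correlated across mice and whose windows held a motif. The windows of Acaca and Elovl6, whose levels were correlated with these 3, held 0 of the 4 motifs and are not printed. A start listed in RefSeq can lie inside the annotated gene, as that of Acaca does. A window without motifs therefore says nothing of other starts of the gene. Each run is the 250 bases before a RefSeq start in GRCm38.p6, read 5′ to 3′ on the minus strand. Srebf1 is given from the most downstream of 3 listed starts, which lies inside its annotated gene. Capitals mark 4 motifs on either strand, the sterol regulatory element (SRE) TCACNCCAC, the E-box CACGTG, the CCAAT box and the GC box GGGCGG, and where 2 CCAAT boxes overlap they form 1 run of capitals.
Srebf1, chr11:60210472-60210721: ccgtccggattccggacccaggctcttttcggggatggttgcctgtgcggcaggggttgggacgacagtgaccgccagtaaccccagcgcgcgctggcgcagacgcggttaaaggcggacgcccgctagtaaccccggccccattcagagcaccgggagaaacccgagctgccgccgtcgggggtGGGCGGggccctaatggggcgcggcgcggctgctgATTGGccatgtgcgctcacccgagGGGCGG
Fasn, chr11:120824548-120824797: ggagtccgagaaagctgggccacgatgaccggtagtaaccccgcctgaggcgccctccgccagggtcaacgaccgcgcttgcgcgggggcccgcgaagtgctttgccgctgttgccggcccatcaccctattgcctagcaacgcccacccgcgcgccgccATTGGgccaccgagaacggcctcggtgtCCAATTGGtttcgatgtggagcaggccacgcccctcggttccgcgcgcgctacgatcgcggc
Acly, chr11:100528001-100528250: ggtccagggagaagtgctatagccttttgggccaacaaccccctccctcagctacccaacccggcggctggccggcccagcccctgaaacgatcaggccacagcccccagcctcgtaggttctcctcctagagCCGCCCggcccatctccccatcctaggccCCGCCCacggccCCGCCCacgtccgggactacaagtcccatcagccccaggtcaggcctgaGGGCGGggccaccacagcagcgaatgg
Thrsp, chr7:97417551-97417800: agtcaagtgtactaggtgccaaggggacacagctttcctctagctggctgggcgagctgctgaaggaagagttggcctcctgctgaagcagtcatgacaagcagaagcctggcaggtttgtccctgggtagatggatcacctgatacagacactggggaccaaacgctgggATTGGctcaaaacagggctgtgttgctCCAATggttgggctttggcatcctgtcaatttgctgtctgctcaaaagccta
The Srebf1 window held 1 CCAAT box, 26 to 30 bases before the start, and 2 GC boxes. The Fasn window held 3 CCAAT boxes and the Thrsp window 2, while the Acly window held 4 GC boxes and no CCAAT box. Of 11 windows of 8 of the 9 genes, 6 held a CCAAT box, 4 a GC box, 2 an E-box (Mlxipl and Elovl5) and 1 an SRE (Mlxipl). Among 32851 windows of all genes, 33.8% held a CCAAT box, 32.7% a GC box, 6.02% an E-box and 1.05% an SRE. No window was listed for Scd2. A match is a description of letters only.

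Levels are given as FPKM, which is per length and can be set side by side between genes. Over the 16 libraries, the mean level was highest for Thrsp (25.1), then Srebf1 (13.1), Scd2 (12.7), Mlxipl (10.5), Elovl5 (8.12), Fasn (6.84), Acly (4.58), Acaca (2.48) and Elovl6 (0.82). The order changed by group, since Srebf1 in C (8.94) was below Scd2 (11.9) and Mlxipl (11.1), and Fasn in E (11.3) was above Elovl5 (8.85). The genes differed far more in how much they varied between mice than this order shows. Fasn spanned 19.1 times from its lowest to its highest library and Elovl6 17.3 times, whereas Mlxipl spanned 1.34 times and Elovl5 1.54 times. Every one of these libraries held at least 34 counts of each gene (Elovl6 in T2), so none of the low values was near the 3-count floor of 0.0797 to 0.0842 CPM. Library totals lay between 35628211 and 37635741 counts.

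**Figure D1:**
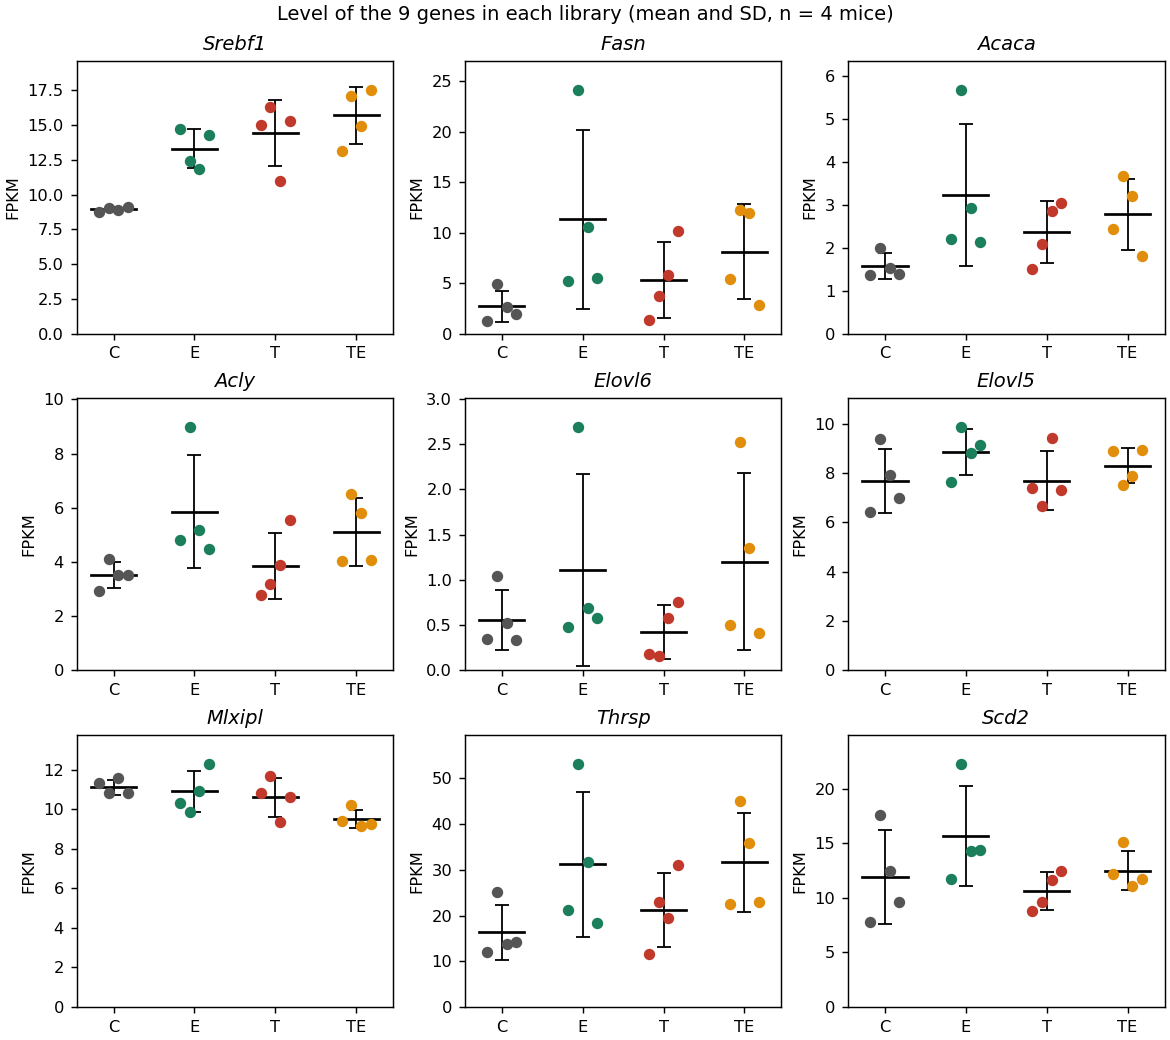
Level of each of the 9 genes in FPKM (vertical axis, from 0) in the 16 libraries by group (horizontal axis), with points for single mice and a black line and bar for the mean and SD of 4 mice. The 4 C points of Srebf1 lie together between 8.76 and 9.09 below all 12 others, while in the E group Fasn, Acaca, Acly, Elovl6 and Thrsp each have 1 library, E2, far above the 3 other E libraries.

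Srebf1 stood lowest in the C group and higher in each of the 3 other groups. It lies in GRCm39 on chromosome 11, 60089913 to 60113407, minus strand, and its transcript for SREBP-1a and that for SREBP-1c are summed in 1 count. The C libraries had 8.76, 9.0, 8.92 and 9.09 FPKM, and the E libraries 14.7, 12.4, 11.8 and 14.3. The T libraries had 15, 16.3, 11 and 15.3, and the TE libraries 13.1, 17.1, 14.9 and 17.5. The lowest library outside the C group, T3, was thus above the highest C library, and the ranges of E, T and TE overlapped each other. In means these are 8.94 ± 0.142 (C), 13.3 ± 1.38 (E), 14.4 ± 2.37 (T) and 15.7 ± 2.03 FPKM (TE, SD, n = 4 in each).

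In T against C, Srebf1 was 1.64-fold higher (log2 fold change 0.72, SE 0.12), with an adjusted p of 0.0111 in edgeR's quasi-likelihood test. It was the 1 of 9 genes called there, at an adjusted p under 0.05, against 0.678% of all genes tested. Leaving out C4 took the call away (adjusted p = 0.0534 in edgeR), and leaving out other single mice gave adjusted p between 0.00107 and 0.0427. In the tumor main effect, the mean of T and TE against the mean of C and E, it was 1.42-fold higher (log2 fold change 0.50, SE 0.0844, adjusted p = 0.00439 in edgeR), and again it was the 1 gene of 9, with 1.36% of all genes called. In E against C, the log2 fold change was 0.53 (SE 0.12, 1.45-fold) with an adjusted p of 0.0904 in edgeR. DESeq2 (adjusted p = 0.00635) and limma-voom with sample weights (adjusted p = 0.0249) called it there. The interaction, which asks whether the step from T to TE differs from the step from C to E, was -0.43 (SE 0.168, adjusted p = 0.483 in edgeR), with TE against T at 0.10 and TE against E at 0.29. TE against T ranged from -0.02 without T3 to 0.18 without TE1 when single libraries were left out. E, T and TE lay beyond C but their order was not separated from the spread within them.

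The spread of Srebf1 among the C libraries was below its counting error. Their coefficient of variation was 1.59%, whereas the counting error of the mean count in this group is 2.51%, and the E, T and TE groups had 10.4%, 16.4% and 12.9%. Rai1 overlaps Srebf1 on the opposite strand, with a median of 829 counts against 1530 to 3142 for Srebf1. The strand setting of the counting is not stated, so reads of the pair are not certain to be told apart.

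Acly, which makes cytosolic acetyl-CoA, was higher in E than in C, with no overlap. The C libraries had 2.93, 4.09, 3.50 and 3.52 FPKM and the E libraries 4.81, 8.98, 5.17 and 4.46. The T libraries had 2.76, 3.19, 3.89 and 5.54, and the TE libraries 4.04, 6.49, 5.81 and 4.07. The lowest E library was above the highest C library, while T and C overlapped widely. Its log2 fold change was 0.71 in E against C (SE 0.234, 1.63-fold, adjusted p = 0.211 in edgeR) and 0.16 in T against C (SE 0.235). Without E2, the former was 0.41, and without T4 the latter was -0.07.

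Acaca, which makes malonyl-CoA and so commits acetyl-CoA to fatty acids, was the less abundant of the pair and behaved similarly. The C libraries had 1.37, 2.00, 1.53 and 1.38 FPKM and the E libraries 2.19, 5.66, 2.91 and 2.13. The T libraries had 1.49, 2.08, 2.84 and 3.03, and the TE libraries 2.44, 3.67, 3.19 and 1.80. All 4 E libraries were above the highest C library, whereas T and TE each had a library under it. The log2 fold change was 1.01 in E against C (SE 0.297, 2.01-fold, adjusted p = 0.165 in edgeR) and 0.61 in T against C (SE 0.297, adjusted p = 0.368 in edgeR). Without E2, the former was 0.58. Tada2a overlaps Acaca on the other strand (median 504 counts), so Acaca counts carry the same uncertainty as Srebf1.

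Fasn, the synthase itself, had the largest step between C and E of the 9 genes and also the widest range from its lowest to its highest library. The C libraries had 1.26, 4.90, 2.60 and 1.96 FPKM and the E libraries 5.21, 24.1, 10.6 and 5.45. The T libraries had 1.38, 3.68, 5.83 and 10.2, and the TE libraries 5.39, 12.2, 11.9 and 2.85. E lay above C in every library, with E1 only just over C2, while T and TE spread across the range of both. The mean was 2.68 ± 1.58 FPKM in C, 11.3 ± 8.86 in E, 5.27 ± 3.75 in T and 8.09 ± 4.7 in TE (SD, n = 4 in each). The log2 fold change in E against C was 2.05 (SE 0.616, 4.15-fold), with an adjusted p of 0.169 in edgeR. It was 1.36 without E2, which is a drop by more than 1.5 times. In T against C it was 1.00 (SE 0.603, adjusted p = 0.484), and in TE against T 0.63 (SE 0.593, adjusted p = 0.942), both in edgeR. T4 moved both, to 0.46 and 1.18 when it was left out, and TE against T was 0.32 without T1, 0.36 without TE2 and 0.37 without TE3. Over all alternatives, including the fat cell markers as covariates, T against C ranged from 0.1 to 1.46. TE against T ranged from 0.32 to 2.6 over the same alternatives.

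Elovl6, which takes palmitate to stearate, was the scarcest of the 9 and rested on few mice. The C libraries had 0.34, 1.04, 0.518 and 0.334 FPKM and the E libraries 0.473, 2.69, 0.692 and 0.574. The T libraries had 0.184, 0.155, 0.577 and 0.759, and the TE libraries 0.505, 2.52, 1.35 and 0.417. E2, TE2 and TE3 were the 3 highest, and all groups overlapped. In E against C the log2 fold change was 0.96 (SE 0.658), and it was 0.02 without E2. In TE against T it was 1.52 (SE 0.67, adjusted p = 0.843 in edgeR), and it was 0.86 without TE2. Over all alternatives, including the fat cell markers as covariates, the TE against T value ranged from 0.55 to 3.32.

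Scd2, a stearoyl-CoA desaturase, was about as abundant as Srebf1 and overlapped between all groups. Its group means were 11.9 ± 4.29 FPKM in C, 15.7 ± 4.58 in E, 10.6 ± 1.74 in T and 12.5 ± 1.78 in TE (SD, n = 4 in each), with E2 highest at 22.3 and C1 lowest at 7.76. Elovl5, the elongase of polyunsaturated chains, stayed between 6.40 and 9.86 FPKM in all 16 libraries. The interval of its log2 fold change was -0.19 to 0.26 in T against C and -0.05 to 0.40 in E against C (95% from the standard error).

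Mlxipl, which encodes the glucose-responsive factor ChREBP, was the flattest gene of the 9. Its mean was 11.1 ± 0.389 FPKM in C, 10.9 ± 1.04 in E, 10.6 ± 0.972 in T and 9.51 ± 0.465 in TE (SD, n = 4 in each). The difference of TE from T was -0.18 on the log2 scale (SE 0.0834, adjusted p = 0.847 in edgeR), and the 95% interval in E against C ran from -0.24 to 0.09. Thrsp, the most abundant of the 9, varied like the enzymes instead. The C libraries had 12.1, 25.1, 13.7 and 14.1 FPKM, the E libraries 21.3, 53.2, 31.8 and 18.3, the T libraries 11.5, 23.0, 19.5 and 31.0, and the TE libraries 22.5, 45, 35.8 and 23.0. C2 stood inside the range of the E libraries, so C and E overlapped. The log2 fold change in E against C was 0.91 (SE 0.346, 1.87-fold, adjusted p = 0.26 in edgeR), and it was 0.51 without E2.

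**Figure D2:**
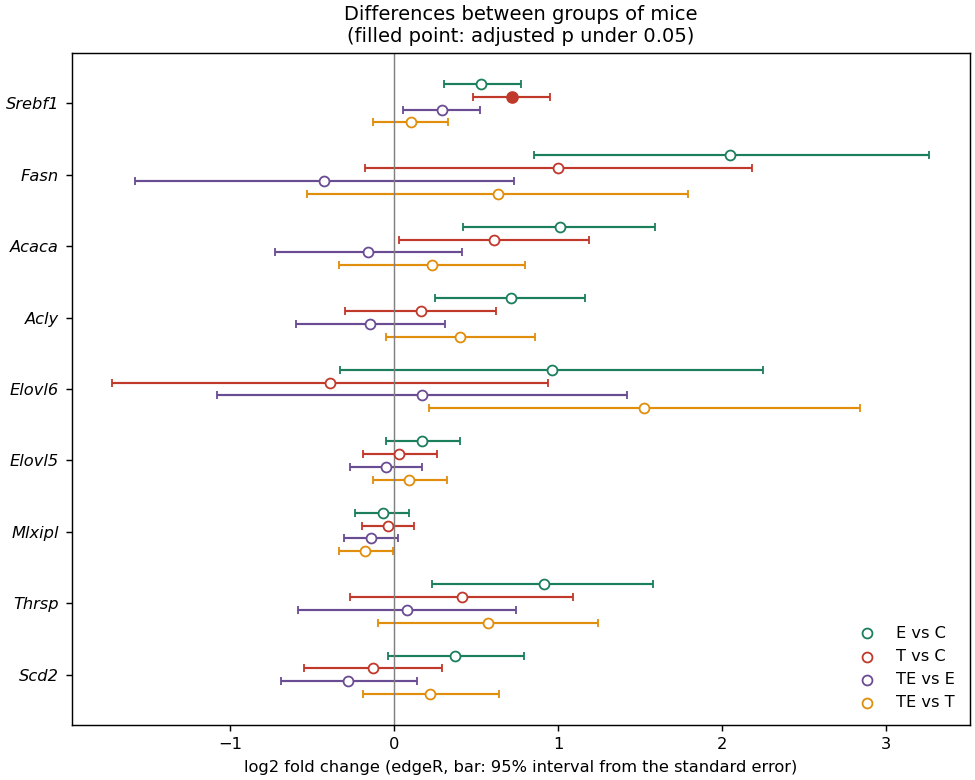
Log2 fold change (horizontal axis) of the 9 genes (vertical axis) in 4 comparisons of 4 mice against 4, with bars for 95% intervals from the edgeR standard error and a filled point where the adjusted p was under 0.05. Srebf1 in T against C is the 1 filled point, at 0.72, while the longest bars belong to Fasn and Elovl6.

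Seen by comparison, E against C was where the largest number of the 9 genes stood apart among the 4 comparisons of 2 groups, though edgeR called none of them there. Srebf1, Fasn, Acaca and Acly, 4 of the 9, had every E library above every C library, and 6.28% of all genes tested did so in that direction. The median log2 fold change of the 9 was 0.705, with 8 above 0, against a median of 0.003 over all genes tested, and it was 0.415 without E2. With edgeR, 0 of the 9 were called at an adjusted p under 0.05 (0.0881% of all genes were), and 5 of the 9 and 2092 of all 14749 genes had an unadjusted p under 0.05. Of the 9, DESeq2 and limma-voom each called Srebf1 only (257 and 141 genes in all), and limma on log2 FPKM called 0 (8 genes in all). In T against C, Srebf1 alone did not overlap, with 2.64% of all genes higher without overlap, and the median log2 fold change of the 9 was 0.157 (0.0562 without T4, 0.0953 without C1, 0.273 without T1). T against C and E against C share the C mice, so their values are given side by side and not as 2 separate tests.

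Between trained and untrained tumor mice, none of the 9 separated. In TE against T, 0 of the 9 had ranges that did not overlap upward (1.49% of all genes did), and edgeR called 0 of the 9 and 0.0% of all genes. There, 2 of the 9 and 867 of all genes had an unadjusted p under 0.05, and DESeq2 called 0 of the 9 and 7 genes in all. In TE against E, 0 of the 9 had ranges that did not overlap upward (1.17% of all genes did), and edgeR called 0 of the 9, with 0.231% of all genes called and 1 of the 9 and 1361 of all 14749 genes at an unadjusted p under 0.05. DESeq2, limma-voom and limma on log2 FPKM also called 0 of the 9 in both of these comparisons.

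For the training main effect, the mean of E and TE against the mean of C and T, edgeR called 0 of the 9 and 0.00678% of all genes. Here 7 of the 9 and 1586 of all 14749 genes had an unadjusted p under 0.05. DESeq2 called Srebf1 among 97 genes in all, while limma-voom and limma on log2 FPKM called 0 of the 9 (14 and 3 genes in all). Fasn had 1.34 (SE 0.426, adjusted p = 0.332 in edgeR), Elovl6 1.24 (SE 0.469), Thrsp 0.74 (SE 0.243), Acaca 0.62 (SE 0.208) and Acly 0.55 (SE 0.165) on the log2 scale. Without E2, Elovl6 was 0.78 and Acaca 0.41. For the interaction, edgeR called 0 of the 9 and 0.0% of all genes, with 1 of the 9 and 1358 of all genes at an unadjusted p under 0.05. DESeq2 called 0 of the 9 and 19 of all genes tested.

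Fasn, Acaca, Acly, Elovl6 and Thrsp moved together from mouse to mouse, Scd2 went with them at somewhat lower values, and Srebf1 had low correlations with them. Over the 16 libraries, the 10 pairs among these 5 genes had Pearson's r between 0.791 and 0.957 and Spearman's rho between 0.753 and 0.959 in log2 CPM. With group means subtracted, r lay between 0.835 and 0.944, and without the 2 libraries farthest from the median between 0.594 and 0.945. Scd2 had r between 0.712 (Acaca) and 0.803 (Elovl6) with these 5 genes, between 0.726 and 0.803 with group means subtracted, and between 0.438 and 0.677 without the 2 farthest libraries. Its r with Elovl6 was above that of Acaca with Elovl6 (0.791), so the ranges of r with and without Scd2 overlapped over the 16 libraries, though not with group means subtracted. E2, TE2 and TE3 ranked 1, 2 and 3 of 16 for each of the 5 genes. Srebf1 had r between -0.162 and 0.418 with the 8 other genes, and between -0.571 (Elovl5) and 0.655 (Mlxipl) with group means subtracted. These values describe the 16 libraries and no test was set on them, since the genes were chosen together.

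**Figure D3:**
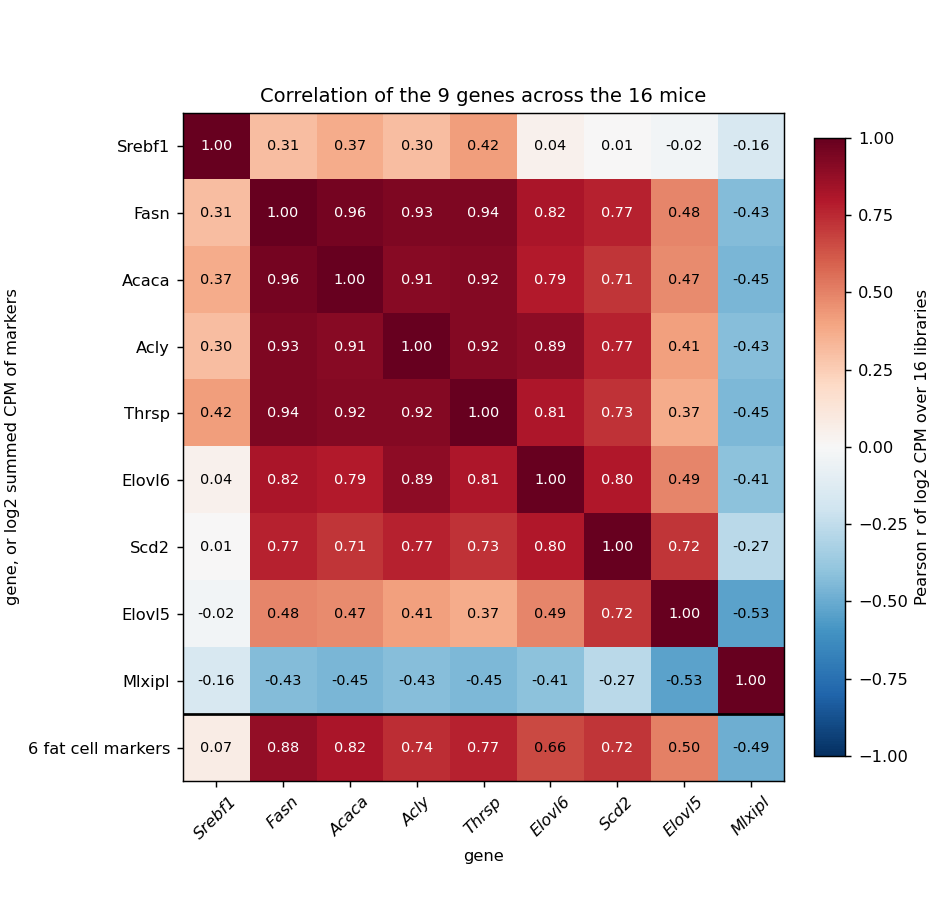
Pearson's r of log2 CPM over 16 libraries between the 9 genes (both axes) and, in the lowest row, between each gene and the log2 summed CPM of 6 fat cell markers. The block of Fasn, Acaca, Acly, Thrsp and Elovl6 is dark red (0.791 to 0.957) and Scd2 joins it at 0.712 to 0.803, whereas the Srebf1 row stays between -0.162 and 0.418.

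Among all genes tested, those with the pattern most like Fasn were Scd1 (r = 0.978), the main stearoyl-CoA desaturase of liver and fat, Slc25a1 (0.959), the mitochondrial citrate carrier, Acaca (0.957), Pygl (0.947) and Thrsp (0.935). Scd1 ranged from 4.68 to 93.4 FPKM. The genes most like Srebf1 were 1110002L01Rik (0.827), Gm52147 (0.819), Rasa4 (0.817), AI597479 (0.795) and Arhgef37 (0.786), with no other gene of the 9 among them. Those most like Scd2 were Mgat3 (0.861), Parva (0.85), Hsd17b12 (0.845), Ndrg1 (0.842) and Fyn (0.837). Likeness was Pearson's r of log2 CPM over 16 libraries in each case.

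Fat cell transcripts differed widely between libraries. In bulk tissue, more fat cells and more RNA of these genes per cell cannot be told apart. The summed FPKM of Adipoq, Plin1, Cidec, Lep, Retn and Cfd was 12.9, 69.0, 73.3 and 30.3 in the C libraries and 66.5, 232, 149 and 42.6 in the E libraries. It was 12.7, 56.7, 166 and 137 in the T libraries and 65.1, 96.2, 77.5 and 40.1 in the TE libraries. E2, the highest library of Fasn, was the highest here as well, and C1 and T1, the lowest of Fasn, were the lowest. Fasn had r = 0.879 and rho = 0.844 with this sum over 16 libraries and r = 0.804 without the 2 farthest libraries (C1 and T1). Acaca had 0.819, Thrsp 0.766, Acly 0.74, Scd2 0.716, Elovl6 0.662, Elovl5 0.503 and Mlxipl -0.487, while Srebf1 had r = 0.0712 and rho = -0.0765, and r = -0.487 with group means subtracted. These 6 markers were taken after the data were seen, so the values are a description with no test.

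**Figure D4:**
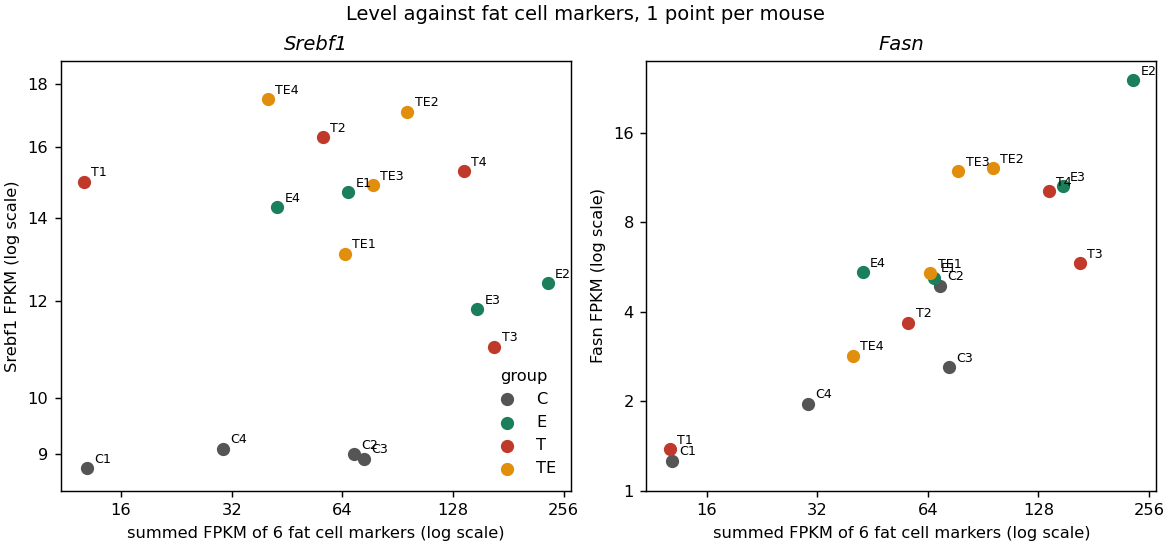
Level of Srebf1 (left) and Fasn (right) in FPKM against the summed FPKM of 6 fat cell markers, both on log scales, with 1 labelled point per mouse colored by group. Fasn climbs with the markers from C1 and T1 to E2 (r = 0.879 in log2 CPM), and the 4 C points of Srebf1 stay near 9 while the markers go from 12.9 to 73.3.

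A wider list held 14 fat cell markers, and its sum went with the enzymes within groups but not over all 16 libraries. Car3, Fabp4 and Pnpla2, which muscle and its vessels also express, made up 92.3% of its summed CPM, and Fasn had r = 0.224 and rho = 0.135 with it (adjusted p = 0.897 and 0.876 in permutation tests over the 9 genes). With group means subtracted, r with the 14-marker sum was 0.803 for Fasn, 0.702 for Acaca and for Thrsp, 0.695 for Acly, 0.627 for Elovl6 and -0.467 for Srebf1. The E against C values of the enzymes depended on which sum was used as a covariate. With the log2 sum of the 6 markers in the edgeR fit, Fasn fell from 2.05 to 0.82 in E against C (adjusted p = 0.558) and Acaca from 1.01 to 0.46 (adjusted p = 0.619), and 0 of the 9 were called. With the 14 markers, Fasn was 2.45 (adjusted p = 0.00729), Acaca 1.17 (adjusted p = 0.0206) and Acly 0.86 (adjusted p = 0.0275), and these 3 were called. Srebf1 in T against C was 0.77 with the 6 (adjusted p = 0.00581) and 0.78 with the 14 (adjusted p = 0.00701).

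Among other enzymes and partners of the pathway, most did not pass the test. Of 28 lipogenesis partners, 26 were tested and Acsl3, an acyl-CoA synthetase, was the 1 that edgeR called in any contrast, in the tumor main effect, where 201 of all 14749 genes (1.36%) were called. DESeq2 called 2 in T against C (Acsl3 and Lpin1, with 421 of all genes tested), and DESeq2 and limma-voom each called 1 in E against C (Gpam, with 257 and 141 of all genes tested). Acsl3 rose in the tumor main effect by 0.74 on the log2 scale (SE 0.158, adjusted p = 0.0234 in edgeR), from 3.99 ± 0.413 FPKM in C and 5.60 ± 1.11 in E to 7.23 ± 2.92 in T and 8.20 ± 1.15 in TE (SD, n = 4 in each). The median of the list was 0.098 in E against C and 0.106 in T against C, with medians of all genes at 0.003 and -0.001. Scd1 followed Fasn at 11.9 ± 8.32 FPKM in C and 48.3 ± 34.2 in E (log2 fold change 1.99, adjusted p = 0.173 in edgeR), and Slc25a1 at 3.92 ± 1.17 and 10.5 ± 6.19 (1.39, adjusted p = 0.159). Acacb, the carboxylase isoform that muscle uses to restrain fat oxidation, had 30.6, 30.6, 34.8 and 30.5 FPKM in C, E, T and TE, with a log2 difference of 0.21 in T against C (SE 0.0847, adjusted p = 0.269 in edgeR). Me1, which supplies NADPH, had 78.8, 85.9, 86.2 and 88.6. Tecr, the last enzyme of chain elongation, and Me1 were the most abundant of the list, with no call. Gpam, the first acyltransferase of triglyceride synthesis, was lower in E than in C (-0.47, adjusted p = 0.0867 in edgeR).

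The machinery that processes SREBP and the LXR genes held 24 genes, with 0 called by edgeR in any of the 7 contrasts. In T against C, 16 of the 24 lay above 0 and 8 below (7331 and 7418 of all genes). There, 4 had an unadjusted p under 0.05 (2093 of all genes), and DESeq2 called 1 (421 of all genes tested). The largest rises were those of Abca1 (0.69, adjusted p = 0.0652 in edgeR) and Mylip (0.64, adjusted p = 0.169 in edgeR). In E against C, 6 of the 24 had an unadjusted p under 0.05 (2092 of all genes). DESeq2 and limma-voom called 1 each there, in both cases Insig1. Insig1, which retains the SREBP precursor in the endoplasmic reticulum and is itself a target, had 3.93, 4.05, 4.54 and 3.94 FPKM in C and 5.65, 6.48, 5.41 and 5.70 in E. Its log2 fold change there was 0.46 (adjusted p = 0.0867 in edgeR). In the tumor main effect, 6 of these and 2097 of all 14749 genes had an unadjusted p under 0.05, and DESeq2 called 3 and limma on log2 FPKM 1 (470 and 162 of all genes tested). Srebf2, the sterol-directed relative of Srebf1, lay at 3.54, 3.85, 3.21 and 3.58 FPKM in C, E, T and TE, and Nr1h3 (LXR alpha) at 9.07, 7.60, 9.11 and 8.61. Ube2g2, a ubiquitin-conjugating enzyme of the endoplasmic reticulum, was among the most abundant of the list and had a log2 fold change of 0.14 in T against C (adjusted p = 0.552 in edgeR).

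Genes of carbohydrate response gave 0 calls in edgeR among 11 tested of 12, with 1 at an unadjusted p under 0.05 in E against C and 1 in T against C (2092 and 2093 of all 14749 genes). DESeq2 called 1 in the tumor main effect, with 470 of all genes tested. Txnip, a ChREBP target, lay at 485, 396, 475 and 361 FPKM in C, E, T and TE (E against C -0.33, adjusted p = 0.412 in edgeR), Slc2a4, the insulin-regulated glucose carrier, at 257, 246, 234 and 230, and Mlx, the partner of ChREBP, at 5.45, 6.09, 5.84 and 6.01.

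Of the sterol synthesis genes, Hmgcs1 and Msmo1 fell in the tumor main effect. There, 20 of 22 tested genes lay below 0, as did 7342 of all 14749 genes, with a median of -0.155 against 0.001 over all genes. Of the 22, edgeR called 2 lower and 0 higher, and of all genes 92 lower and 109 higher (1.36% in all). Hmgcs1, which makes HMG-CoA, fell by 0.24 on the log2 scale (SE 0.0493, adjusted p = 0.0188 in edgeR), with means of 11.1 ± 1.19 FPKM in C, 11.1 ± 0.768 in E, 8.91 ± 0.402 in T and 9.38 ± 0.418 in TE (SD, n = 4 in each). The T libraries (8.33 to 9.24 FPKM) all lay below the C libraries (9.78 to 12.6), as was the case for 621 of all 14749 genes. T against C alone was not called by edgeR for Hmgcs1 (-0.29, adjusted p = 0.0658). Msmo1, a methylsterol oxidase, fell by 0.46 in the tumor main effect (SE 0.0991, adjusted p = 0.0266 in edgeR), with means of 3.10 ± 0.555 FPKM in C, 3.11 ± 0.492 in E, 2.13 ± 0.189 in T and 2.28 ± 0.348 in TE (SD, n = 4 in each). Its T against C value alone was -0.51 and not called (adjusted p = 0.103 in edgeR). In E against C, the median of the sterol genes was 0.034, against 0.003 over all genes. DESeq2 and limma-voom each called 2 of the 22 there (257 and 141 of all genes tested), and edgeR 0. In T against C, DESeq2 called 3 of the 22 (421 of all genes tested), and edgeR and limma-voom 0.

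Of 21 tested fasting response genes, edgeR called 2, Foxo1 and Foxo3, in T against C and in the tumor main effect, where 0.678% and 1.36% of all genes were called. Both encode forkhead factors that insulin holds out of the nucleus. Foxo1 rose in T against C by 0.66 on the log2 scale (SE 0.123, adjusted p = 0.0195 in edgeR). It had 3.96 to 5.08 FPKM in the C libraries and 5.28 to 7.64 in the T libraries, without overlap, where 2.64% of all genes were higher without overlap. Foxo3 rose by 0.47 (SE 0.0944, adjusted p = 0.0335 in edgeR). Neither was called in T against C when C1, C2, C4, T1 or T3 was left out. The median of the fasting list was 0.386 in T against C and 0.14 in E against C, with medians of all genes at -0.001 and 0.003.

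**Figure D5:**
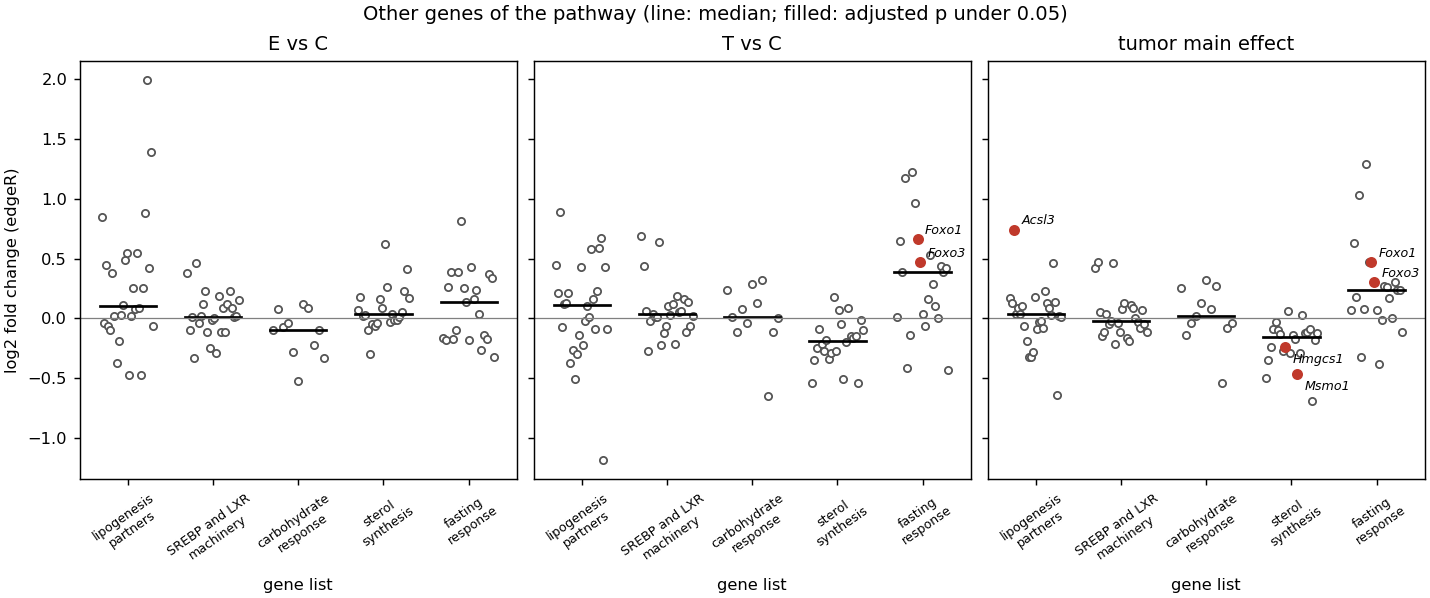
Log2 fold change (vertical axis) of the tested genes of 5 lists (horizontal axis) in E against C, T against C and the tumor main effect, each circle 1 gene, the line the median of the list and a filled, named point an adjusted p under 0.05 in edgeR. Foxo1 and Foxo3 are filled in T against C, Acsl3, Foxo1, Foxo3, Hmgcs1 and Msmo1 in the tumor main effect, and none in E against C.

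Markers of other cell types were compared in the same libraries, and their part in the values above was not tested. The 6 fast muscle markers, led by Acta1 and Ckm, summed to between 51200 and 59600 FPKM in every library. Of 6 myeloid markers, the neutrophil genes S100a8, S100a9 and Retnlg rose in T against C (0.678% of all genes were called there), while Adgre1, Csf1r and Cd68 were not called (adjusted p = 0.358, 0.41 and 0.41 in edgeR), and the 6 summed to 5.18 to 15.1 FPKM in C and 18.7 to 88.6 in T. Of 4 endothelial markers, Kdr, a VEGF receptor, fell by 0.68 on the log2 scale in T against C (adjusted p = 0.0457 in edgeR) and the others were not called (Cldn5 1.32, Pecam1 0.37 and Cdh5 -0.15), with summed medians of 124 FPKM in C and 126 in T. The 6 Schwann cell markers, Pmp22 among them, had 0 calls in T against C in edgeR, DESeq2 and limma-voom, with 3 at an unadjusted p under 0.05 (2093 of all 14749 genes), and summed to 173 to 399 FPKM in C and 122 to 254 in T. Lymphoid markers, led by Ccl21a and Glycam1, had 0 calls in T against C in edgeR (4 of 6 at an unadjusted p under 0.05, beside the same 2093 of all genes, and 1 call in DESeq2) and reached 108 FPKM in 1 TE library, against at most 37.9 in the C, E and T libraries.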

How the data were processed

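PolyA RNA libraries of 16 gastrocnemius muscles were grouped as C, E, T and TE from the sample titles. The authors trimmed reads with fastp 0.20.1, aligned them to GRCm39 with HISAT2 2.1.0 and deposited raw counts per gene from HTSeq 0.11.2 (versions per the submitters' processing notes). The authors also deposited FPKM values, which equalled counts over gene length and library total (largest relative deviation 2.57e-13). The annotation release and strand setting are not given in the sources used here, and the paper and the labels name different versions of the library kit. The tables held 0 columns of other samples. All libraries carry 1 batch number.

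Counts were tested with edgeR 4.0.16 (R 4.3.3): filterByExpr (14749 of 35415 genes), TMM factors, glmQLFit and glmQLFTest with 1 coefficient per group, 7 contrasts and two-sided p-values adjusted by Benjamini-Hochberg over all genes tested, with a call at an adjusted p under 0.05. On simulated counts the script was tested for known changes. In the main edgeR fit, the p-values rest on the spread between mice within groups, pooled over the 4 groups. A mouse of neither group compared can therefore change them. Floors and counting errors cover counting error only. Counts of replicates differed by more than counting noise (chi-square per degree of freedom 13.4 to 65.8). Correlations used log2 CPM with a prior count of 2 and permutation tests with 100000 resamples (two-sided).

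The 9 genes and all gene lists were chosen with earlier results of these data known. The genes named besides them are, in each list, those called in any contrast (at most 6) or else the 2 with the highest mean FPKM, the 5 genes most like Srebf1, Fasn and Scd2, and a set of known partners and targets (Scd1, Insig1, Srebf2, Nr1h3, Mlx, Txnip, Me1 and Acacb). Some genes that this rule names are not reported here. Gpam, Slc25a1, Abca1, Mylip and the FPKM of single fat cell markers were taken up after their values were seen. Gene positions are from GENCODE vM39 (GRCm39) and promoter windows from RefSeq (GRCm38.p6). The windows were trimmed to the 250 bases before the start, and 8 of the 9 genes matched. Alternatives were DESeq2 1.42.0, its size factors, no filter, a fold change of at least 2, a replicate block, each library left out, limma-voom with sample weights, limma 3.58.1 on log2(FPKM + 1), only the groups compared, a pseudocount of 0.1, and, added after seeing the data, the summed CPM of 6 or 14 fat cell markers as a covariate. Figures were drawn with matplotlib 3.10.9.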

Additional observations from a re-analysis of the deposited data

Results flagged for a closer look

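In 36 sets of 4 libraries (9 genes in 4 groups), 3 had a library set apart from the 3 others by Dixon's test at the 95% level, where 1.8 would be flagged by chance at 1 in 20. Acly in the E group had 8.98 FPKM in E2, with the other E libraries at 4.46 to 5.17 (gap over range 0.845). Elovl6 in the E group had 2.69 FPKM in the same library, with the others at 0.473 to 0.692 (gap over range 0.901). Thrsp in the C group had 25.1 FPKM in C2, with the others at 12.1 to 14.1 (gap over range 0.845). The summed FPKM of 6 fat cell markers was 232 in E2, the highest of 16 libraries, and 69.0 in C2, and its part in these values was not tested.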

How the results depend on the processing

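Of the log2 fold changes of the 9 genes under the alternatives, 1528 moved by less than 1 SD between replicates and 20 by more. The called values, Srebf1 in T against C and in the tumor main effect, did not change sign. The tally includes fits that left out a library of neither group compared, where the value could hardly move. The SD was also wide for variable genes such as Elovl6, so the tally does not measure how stable a value is. Called genes of the 9 and of the 5 pathway lists together were counted under each setting, and where a count changed by over 1.5 times the cause was not tested. In T against C (1 of the 9 and 2 pathway genes), the counts were 0 and 0 with a fold change of at least 2, and the pathway count was 4 with no filter on low counts, 1 with only the 2 groups compared, 0 with limma on log2(FPKM + 1) and 10 with DESeq2. In E against C (0 and 0), they were 1 and 1 with no filter, 1 and 4 with only the 2 groups compared, 1 and 4 with limma-voom, 1 and 5 with DESeq2, and 3 and 5 with the 14 fat cell markers as a covariate. In the tumor main effect (1 and 5), they were 0 and 0 with a fold change of at least 2, and the pathway count was 8 with no filter, 13 with DESeq2 and 8 with the 6 fat cell markers as a covariate. In the training main effect (0 and 0), they were 1 and 4 with DESeq2 and 4 and 3 with the 14 markers. With 1 library left out at a time, the count of the 9 ranged from 0 (without C4) to 1 in T against C and from 0 to 1 (without T3) in E against C, and the pathway count from 0 to 4 in T against C, from 0 to 3 in E against C, from 3 to 8 in the tumor main effect and from 0 to 2 in the training main effect. The number of all genes called moved far more, from 0 to 257 in E against C, from 16 to 423 in T against C and from 11 to 179 in TE against E, against 13, 100 and 34.

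Replicate numbers did not pair the mice: same-numbered libraries had r between -0.241 and 0.214 in their deviations from the group means (5 of 24 pairs over 0.1). With the replicate block, 1 of the 9 was called in T against C and 1 in the tumor main effect, 0 in E against C, and 25 genes in all in E against C.

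Correlations with the 14 fat cell markers also changed. With the 6 markers, r was 0.0712 for Srebf1, 0.879 for Fasn, 0.819 for Acaca, 0.74 for Acly, 0.662 for Elovl6, 0.503 for Elovl5, -0.487 for Mlxipl, 0.766 for Thrsp and 0.716 for Scd2. With group means subtracted from the 14-marker values, it was 0.803 for Fasn, 0.702 for Acaca and for Thrsp, 0.695 for Acly, 0.627 for Elovl6, 0.519 for Scd2, 0.251 for Elovl5, -0.42 for Mlxipl and -0.467 for Srebf1. Without the 2 farthest libraries, it was -0.625 for Srebf1 and -0.0297 for Acly. With a pseudocount of 0.1, the difference of Elovl6 between TE and T in log2 FPKM was 1.2. The lowest count of the 9 genes was 34 (Elovl6 in T2), and the counting error of the mean count of Elovl6 in T was 10.4%, with a coefficient of variation of 71.0% between the 4 libraries.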
